A study of Brassica juncea with 18 samples.

Results

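The DREB2 transcription factors of *Brassica juncea* (Indian mustard, an oilseed crop) were followed in siliques, the seed pods, during development and cold. Members were all transcripts whose best database hit was named DREB2 or dehydration-responsive element-binding protein 2. They were 4 of the 13342 transcripts with expression values and came from 3 unigenes (groups of isoforms from the assembly). The whole assembly of 133641 transcripts held 16 transcripts of 10 unigenes with such a hit, and expression of the other 12 was not analysed here. Those 12 comprised all 8 transcripts named DREB2B, the 1 named dehydration-responsive element-binding protein 2B, 2 of the 4 named DREB2A and 1 of the 2 named DREB2-19.

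DREB proteins belong to the AP2/ERF family of plant transcription factors and bind the dehydration-responsive element, also called the C-repeat, in the promoters of stress genes. In Arabidopsis the DREB1 proteins, also named CBF, form the branch known for cold, and DREB2 proteins form the branch known for dehydration, salt and heat. Arabidopsis DREB2A is also controlled as a protein, which is kept unstable until stress, so a transcript level is not a measure of active factor.

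RNA-seq libraries were made from whole siliques of field-grown, self-pollinated plants of var. Varuna at 6 stages, every 5 days from 5 to 30 days after pollination (DAP). Branches were cut, stood in water and kept either in the field (control) or at 4 °C for 6 h or 12 h. Each stage and duration had 1 library, 18 in all, so stages served as the replicates of cold and p-values measure only the spread between these single libraries. The hour of harvest was not given in the sources used here, so a difference between hours of the day cannot be told apart from cold. Levels are FPKM, that is, fragments mapped to a transcript divided by its length in kilobases and by the library total, and the read counts behind them were not used here. The table was restricted by the authors to transcripts that differed between some pair of libraries, so its share of changed transcripts is not that of the transcriptome. The DREB2 members passed that selection on these same libraries, so their calls are not independent of it. Libraries held 11194 to 12462 of the 13342 transcripts above 0. The summed level of 28 napin, cruciferin and oleosin transcripts (seed proteins) was 2.84 to 10.4 FPKM in early controls (5 to 15 DAP) and 25.5 to 1390 FPKM in late controls (20 to 30 DAP). After cold it was 3.7 to 15.9 FPKM in early and 24.5 to 822 FPKM in late siliques. That of 6 transcripts of embryo regulators, 2 named LEC1 and 4 named leafy cotyledon 2, was 0.35 to 3.57 FPKM in early and 95 to 229 FPKM in late controls, and 0.19 to 6.78 and 61.2 to 328 FPKM after cold. A search for names of pollen, anther or root, organs that the siliques should lack or hold little of, gave 22 transcripts of 9 unigenes. All were named for pollen or anther, and an oleosin among them (c25648_g1_i1) was also in the seed list. The 22 transcripts summed to 22.2 to 119 FPKM in early and 80.3 to 225 FPKM in late controls, and to 15.9 to 139 and 73.2 to 227 FPKM after cold. The green tissue list held 1 transcript, a chlorophyll a-b binding protein of the light-harvesting complex. In whole organs, fewer cells of a type and less RNA per cell cannot be told apart.

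The 4 members differed in how much of a DREB2 protein they matched. *DREB2-2* (c71883_g1_i1) was 1131 bp long, matched its database protein over 214 residues with a bit score of 506.3 and carried an annotated AP2 domain, the DNA-binding part of the family. *DREB2A* isoform i3 (c67725_g2_i3) was 1786 bp, matched over 322 residues with a bit score of 496.0 and also carried the AP2 domain. *DREB2A* isoform i4 (c67725_g2_i4) was 1057 bp with a match of 221 residues, a bit score of 318.6 and no annotated domain. *DREB2-19* (c38050_g2_i1) was a fragment of 471 bp whose name rested on 63 residues with a bit score of 152.8, with no annotated domain. The annotated processes differed likewise, since *DREB2-2* and *DREB2-19* carried 1 process term (regulation of transcription) and both *DREB2A* isoforms carried 9, among them response to water deprivation, heat acclimation and protein folding.

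The assembly components of *DREB2-2* and *DREB2-19* each also held a transcript named for the cold branch. The other unigene of the component that held *DREB2-19* was a c-repeat binding factor (c38050_g1_i1), also matched over 63 residues. In the component of *DREB2-2* the other transcripts were mostly a hypothetical protein with ABC_membrane and ABC_tran domains. That component also held a 335 bp fragment named CBF-like protein (c71883_g2_i6). The names DREB2-2 and DREB2-19 are therefore used as names of best hits, and reads shared with such near copies could have been divided between them. The *DREB2A* unigene had 9 isoforms in the assembly, 5 of them with DREB2B as best hit, so the levels of i3 and i4 depend on how the estimation divided shared reads.

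*DREB2-2* was low in every control library and high in every 6 h library, and at 12 h it lay between them at each stage. Control levels ran from 0.25 to 1.93 FPKM with a median of 1.07, and the mean was 1.08 ± 0.588 FPKM (SD, n = 6 stages). After 6 h of cold they ran from 17.95 to 44.31 FPKM with a median of 27.4 and a mean of 30.2 ± 10.0 FPKM (SD, n = 6). After 12 h they ran from 2.13 to 14.13 FPKM with a median of 7.53 and a mean of 7.51 ± 4.62 FPKM (SD, n = 6). None of the 3 groups overlapped another. In the whole table, all 6 libraries at 6 h lay above all 6 controls for 6.09% of transcripts, all at 12 h lay above all controls for 4.83%, and all at 6 h lay above all at 12 h for 1.18%.

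By stage, the lowest 6 h level of *DREB2-2* was at 5 DAP, where it went from 1.17 FPKM in the control to 17.95 at 6 h and 2.13 at 12 h. At 10 DAP the same series was 0.96, 29.95 and 6.32 FPKM. The highest levels of both cold durations were at 15 DAP, with 1.93, 44.31 and 14.13 FPKM. Siliques of 20 DAP gave 0.70, 24.22 and 8.74 FPKM. At 25 DAP a high 6 h level was followed by a low 12 h level, with 1.47, 39.71 and 2.98 FPKM. At 30 DAP the control was lowest, with 0.25, 24.89 and 10.78 FPKM. The ratio of 6 h to control was thus 15.3 to 99.6 with a median of 29.1, and that of 12 h to control was 1.82 to 43.1 with a median of 6.95. The 12 h level was 7.5% to 43.3% of the 6 h level, with a median of 26.5%.

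**Figure D1:**
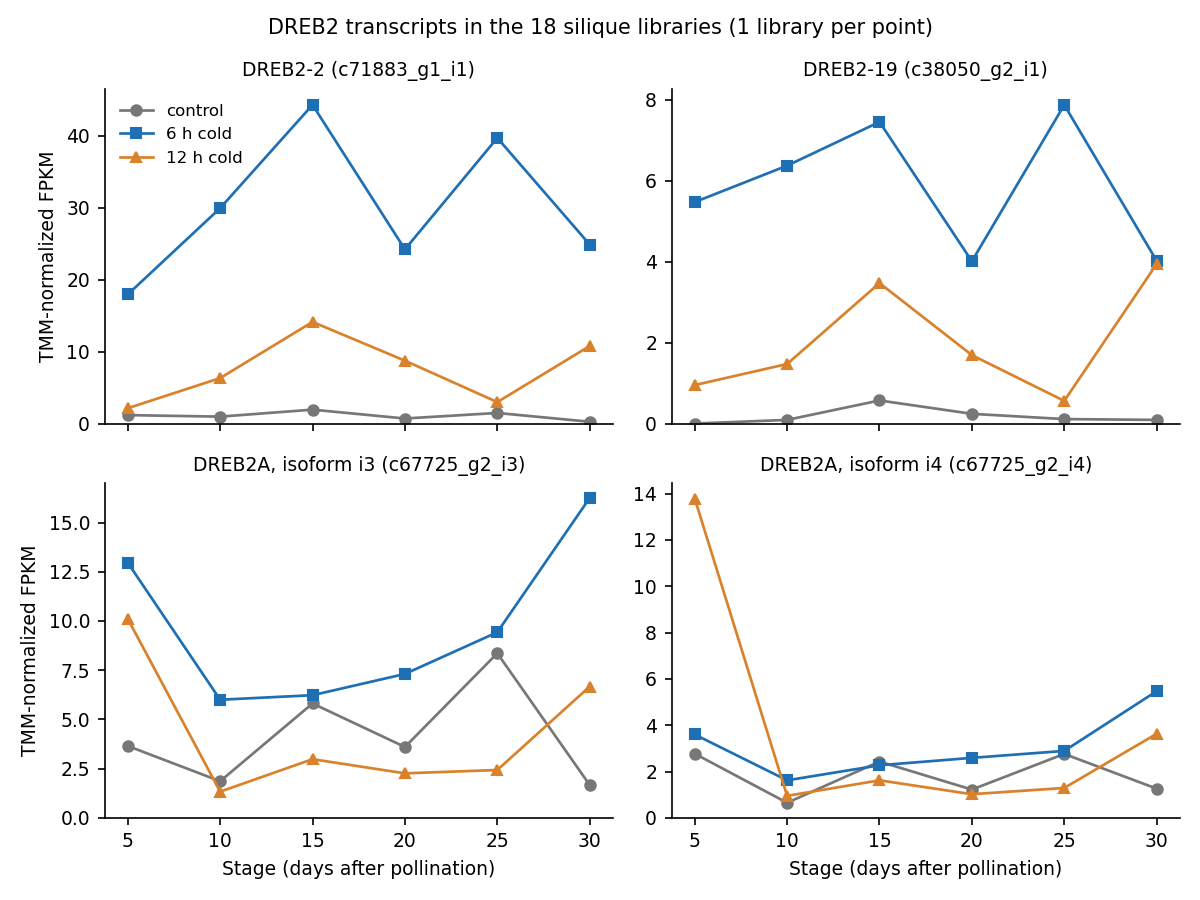
Levels of the 4 DREB2 transcripts by library, 1 panel for each transcript, with the stage in DAP on the x axis and FPKM on the y axis, and 1 line for each of control, 6 h and 12 h at 4 °C. Every point is 1 library and has no error bar. *DREB2-2* is at 17.95 to 44.31 FPKM at 6 h and at 0.25 to 1.93 FPKM in controls, whereas the lines of the *DREB2A* isoforms cross.

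*DREB2-19* had the same order at much lower levels. Its control libraries ran from 0 to 0.57 FPKM with a median of 0.10, the 6 h libraries from 4.01 to 7.87 FPKM with a median of 5.92, and the 12 h libraries from 0.56 to 3.94 FPKM with a median of 1.58. The 6 h group overlapped neither of the others, and the 12 h and control groups met at a single point, since the lowest 12 h library (25 DAP, 0.56 FPKM) lay just under the highest control (15 DAP, 0.57 FPKM). It is listed at 0 in the 5 DAP control, and at the other 5 stages the 6 h level was 13.1 to 71.5 times the control, with a median of 44.7. These controls were near the lowest values the table holds. Among the values above 0 of 1156 transcripts within 50 bp of its length, the controls at 10, 25 and 30 DAP stood at percentiles 8.20, 5.57 and 7.91, so ratios to them are imprecise. Between durations, the 12 h level was 7.12% of the 6 h level at 25 DAP and 98.0% at 30 DAP (3.94 against 4.02 FPKM), with a median of 32.6% over the 6 stages.

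*DREB2A* i3, the longer isoform, was present in every control library, and its ratios of 6 h to control were smaller than those of *DREB2-2* at each stage. Controls ran from 1.67 to 8.36 FPKM with a median of 3.63, the 6 h libraries from 6.00 to 16.25 FPKM with a median of 8.37, and the 12 h libraries from 1.33 to 10.11 FPKM with a median of 2.71. All 3 groups overlapped. The 6 h level exceeded the control at each of the 6 stages, but the ratio was 9.73 at 30 DAP (1.67 to 16.25 FPKM) and 1.07 at 15 DAP (5.81 to 6.23 FPKM). After 12 h the level was above the control at 2 stages, 5 DAP (10.11 against 3.65 FPKM) and 30 DAP (6.67 against 1.67 FPKM), and below it at the other 4.

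*DREB2A* i4 was the lower of the pair in all libraries but 1. Controls ran from 0.65 to 2.77 FPKM with a median of 1.85, the 6 h libraries from 1.62 to 5.47 FPKM with a median of 2.74, and the 12 h libraries from 0.95 to 13.79 FPKM with a median of 1.46. The value of 13.79 FPKM was that of 5 DAP siliques after 12 h, and the next highest 12 h library (30 DAP) had 3.63 FPKM. The i4 level exceeded the control at 5 stages after 6 h and at 3 stages after 12 h.

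The first question of the design was whether levels differed after 6 h of cold on average over the 6 stages. With 1 library per stage and duration, no single stage was tested. The green tissue transcript moved with cold as well, from 2.84 to 6.45 FPKM in early controls to 21.05 to 32.4 at 6 h and 5.11 to 20.6 at 12 h, and from 1.74 to 6.60 FPKM in late controls to 5.94 to 10.3 and 5.01 to 9.94, and its part in the DREB2 results was not tested. In limma, with stage as a block and p-values adjusted over all 13342 transcripts, 3 of the 4 DREB2 transcripts were higher at 6 h and 0 were lower, where 12.6% of all transcripts were called higher and 9.21% lower. *DREB2-2* rose by 3.89 (SE 0.30, 95% interval 3.24 to 4.55) on the log2(FPKM + 1) scale, with an adjusted p of 8.31e-07, the 20th highest change of the table. *DREB2-19* rose by 2.52 (SE 0.24, interval 2.0 to 3.04, adjusted p 5.46e-06) and ranked 161st. On this scale the change of low transcripts is understated, which bears on *DREB2-19* most. *DREB2A* i3 rose by 1.11 (SE 0.34, interval 0.38 to 1.85, adjusted p 0.0316) and ranked 982nd. That last call did not survive several alternatives. Its adjusted p was 0.0874, 0.104, 0.0654 and 0.106 without the 5, 10, 20 and 30 DAP stages in turn, 0.0622 without the 5 DAP 6 h library, 0.0884 without the stage block and 0.0612 with i3 and i4 summed. The other isoforms of that unigene were not in the sum. The change of i4 was 0.52 (SE 0.32, interval −0.16 to 1.21, adjusted p 0.306).

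At 12 h, 2 of the 4 members were called higher and 0 lower, beside 10.2% and 11.2% of all transcripts. The 12 h and 6 h comparisons share their control libraries. *DREB2-2* was higher by 1.87 (SE 0.30, interval 1.22 to 2.53, adjusted p 0.000568) and *DREB2-19* by 1.24 (SE 0.24, interval 0.72 to 1.76, adjusted p 0.00211), with higher levels than the control at 6 of 6 stages each. Among all transcripts 10.7% were higher at 12 h at every stage, and 13.1% were higher at 6 h. The differences of *DREB2A* i3 and i4 were −0.04 (SE 0.34, interval −0.77 to 0.70, adjusted p 0.966) and 0.33 (SE 0.32, interval −0.35 to 1.02, adjusted p 0.540). Without the 5 DAP stage the i4 difference was 0.01 (adjusted p 0.994).

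Between the durations, *DREB2-2* and *DREB2-19* fell and no member rose, where 3.62% of all transcripts were called lower and 1.29% higher at 12 h than at 6 h. *DREB2-2* fell by 2.02 on the log2 scale (SE 0.30, adjusted p 0.00120) and *DREB2-19* fell by 1.28 (SE 0.24, adjusted p 0.00700). Both were lower at 6 of 6 stages, which held for 6.78% of the table. *DREB2A* i3 was also lower at 6 of 6 stages, with a difference of −1.15 (SE 0.34, interval −1.88 to −0.42) that did not pass (adjusted p 0.0806). The i4 difference was −0.19 (SE 0.32, interval −0.88 to 0.50, adjusted p 0.848).

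The share of reads kept in quality filtering moved with duration, as up to 20 DAP it set the 12 h libraries apart from the control and 6 h ones, and at 25 and 30 DAP every library had the class of those 12 h libraries. Thus the 6 h and control libraries had the same class at every stage, and the 12 h library shared it with them at 25 and 30 DAP. With that class as a term, the fall of *DREB2-2* from 6 h to 12 h was of like size (−2.09, SE 0.50) but no longer passed (adjusted p 0.0679), nor did that of *DREB2-19* (−1.22, SE 0.40, adjusted p 0.208). The 12 h rise remained called for *DREB2-2* (1.81, SE 0.50, adjusted p 0.0413) and not for *DREB2-19* (1.29, SE 0.40, adjusted p 0.0632). Within the shared class, *DREB2-2* was at 1.47, 39.71 and 2.98 FPKM at 25 DAP and at 0.25, 24.89 and 10.78 FPKM at 30 DAP in control, 6 h and 12 h siliques.

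**Figure D2:**
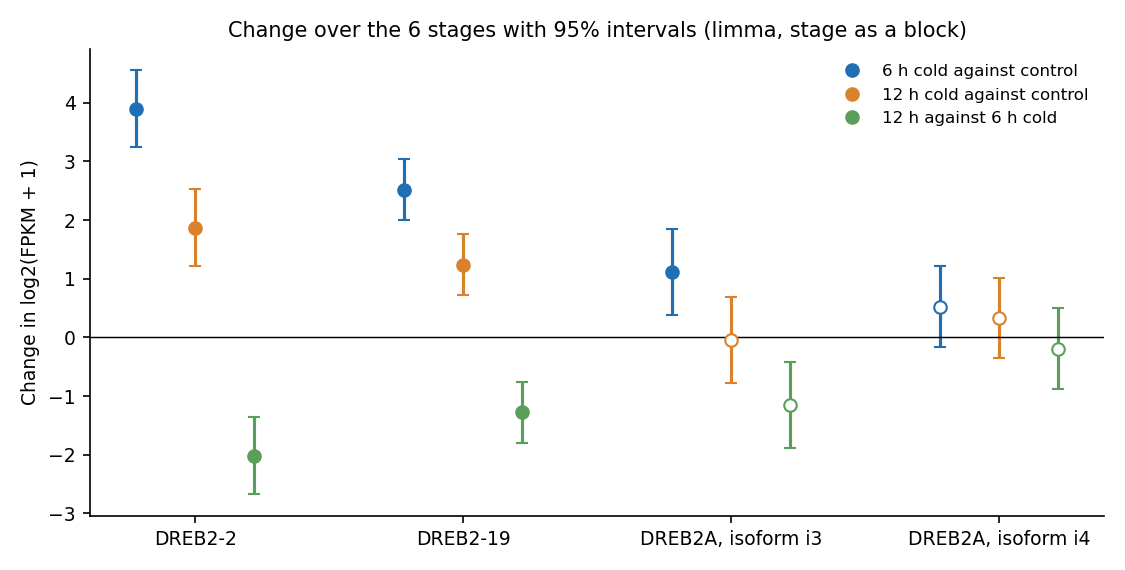
Changes of the 4 DREB2 transcripts in log2(FPKM + 1) for each duration against the control and for 12 h against 6 h, with 95% intervals from limma over 6 stages. Filled symbols mark an adjusted p under 0.05, and open symbols mark the rest. *DREB2-2* has the largest change of the 4 in each comparison, 3.89, 1.87 and −2.02, and the intervals of *DREB2A* i4 cross 0 throughout.

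Counted stage by stage with no test, at least a 4-fold rise in FPKM + 1 was seen for *DREB2-2* and *DREB2-19* at 6 of 6 stages after 6 h, for *DREB2A* i3 at 1 stage and for i4 at 0. The share of all transcripts with such a rise was 6.55%, 3.73%, 3.22%, 2.34%, 2.73% and 3.45% from 5 to 30 DAP. After 12 h it was seen for *DREB2-2* at 3 stages, for *DREB2-19* at 1 and for either *DREB2A* isoform at 0, beside 2.68%, 2.19%, 3.32%, 3.19%, 3.76% and 3.32% of all transcripts from 5 to 30 DAP.

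*DREB2-2* and *DREB2-19* rose with cold in early and in late siliques. With 6 h and 12 h averaged, *DREB2-2* rose by 2.64 (SE 0.39, adjusted p 0.000837) in early and by 3.12 (SE 0.39, adjusted p 0.000366) in late stages. For *DREB2-19* the rises were 1.92 (SE 0.32, adjusted p 0.00158) and 1.83 (SE 0.32, adjusted p 0.00286). With read class as a term the early rise of *DREB2-19* was 1.88 and did not pass (adjusted p 0.0520). The 2 *DREB2A* isoforms were called in neither phase, with changes of 0.52 and 0.55 for i3 and 0.45 and 0.41 for i4. Of all transcripts 10.6% were called higher and 7.44% lower in early stages, and 7.7% and 5.55% in late stages. In the direct limma test of late minus early effects, 0 of 4 members differed, and 0 did so at an unadjusted p under 0.05. Of all transcripts 0% were called, with 748 transcripts at an unadjusted p under 0.05. The interval of that difference was −0.74 to 1.70 for *DREB2-2*, −1.07 to 0.90 for *DREB2-19*, −1.37 to 1.41 for i3 and −1.23 to 1.14 for i4, and each included 0.

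No member was called between late and early stages. Late minus early stage means differed by −0.09 for *DREB2-2* (interval −0.97 to 0.78), −0.12 for *DREB2-19* (−0.80 to 0.56), 0.13 for *DREB2A* i3 (−0.79 to 1.05) and −0.09 for i4 (−1.17 to 0.99). In limma 0 of 4 passed, and 0 at an unadjusted p under 0.05, beside 3.43% of all transcripts called higher and 0.277% lower in late stages. Of all transcripts 3736 had an unadjusted p under 0.05. The summed seed and embryo markers, which were far higher in late siliques, thus moved with stage where the DREB2 transcripts were not called, and the part of these markers in the DREB2 levels was not tested.

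The estimated proportion of the 2 *DREB2A* isoforms varied between libraries, and a change with cold was not shown. Isoform i4 made up 21.3% to 57.7% of their sum, with a median of 28.1% over the 18 libraries. It exceeded 50% in 1 library, 5 DAP at 12 h, and the other 17 ran from 21.3% to 43.1%. The mean share was 31.9% in controls, 24.1% at 6 h and 39.3% at 12 h. It was higher at 12 h than at 6 h at 6 of 6 stages, by 15.2 ± 11.4 percentage points (SD, n = 6), with a two-sided exact permutation p of 0.0312, the smallest that 6 pairs allow, and 0.0938 after adjustment over the 3 comparisons of durations. Compared with the control, the share was lower by a mean difference of −7.86 points at 6 h (lower at 5 of 6 stages, exact permutation p 0.0625, adjusted 0.0938) and higher by 7.32 points at 12 h (5 of 6 stages, exact permutation p 0.125, adjusted 0.125). These tests were chosen after the values had been seen, and none passed the adjustment. At 25 and 30 DAP, where all durations share a read class, the share was 23.5% and 25.2% at 6 h and 34.7% and 35.2% at 12 h.

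**Figure D3:**
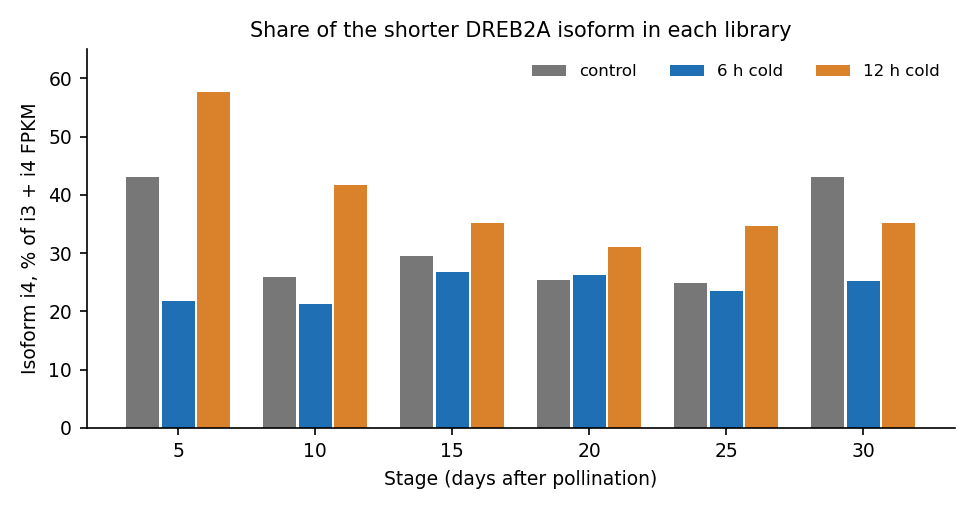
Share of isoform i4 in the summed FPKM of the 2 *DREB2A* isoforms, in percent, by stage in DAP and duration of cold, 1 library a bar, with no error bars. The 12 h bar is higher than the 6 h bar at all 6 stages, and the 5 DAP 12 h library, at 57.7%, is the only one over 50%.

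*DREB2-2* and *DREB2-19* followed each other across libraries, and some but not all DREB1 and CBF transcripts had higher correlations with them than *DREB2A* had. Over the 18 libraries, which share stages and normalization, Pearson's r of log2(FPKM + 1) between *DREB2-2* and *DREB2-19* was 0.975, whereas it was 0.492 between *DREB2-2* and *DREB2A* i3, 0.172 between *DREB2-2* and i4, and 0.520 between *DREB2-19* and i3. The 2 *DREB2A* isoforms correlated at 0.789. After *DREB2-19*, the transcripts most like *DREB2-2* were the c-repeat binding factor c38050_g1_i1 (r = 0.950), *DREB1B* (c106397_g1_i1, 0.937), a phloem protein 2-A12 (c64135_g1_i3, 0.937) and *PRR5b* (c70128_g1_i5, 0.926), the last named for a circadian clock regulator. For *DREB2-19* they were *DREB2-2*, c38050_g1_i1 (0.968), *Lhcb2* (c46154_g1_i1, 0.938), a light-harvesting protein, *CYP71B26* (c68478_g1_i1, 0.935) and *DREB1B* (0.933). For *DREB2A* i3 the closest on this measure were weaker, a RING-H2 finger protein A3B (c68076_g1_i6, 0.751), *MAPKKK17* (c68637_g1_i2, 0.749), a DNAJ protein (c144930_g1_i1, 0.734), a myrosinase-binding protein (c131966_g1_i1, 0.729) and a protein phosphatase 2C (c46380_g1_i1, 0.714). None of these stayed among the closest to i3 once the stage mean was removed. The closest were then an S-adenosylmethionine synthase 2 (c70692_g3_i3, 0.929) and a beta-ketoacyl-CoA synthase (c64997_g1_i1, 0.908), so list and strength both depend on the measure. Of the 9 DREB1 and CBF transcripts, 4 had a higher r with *DREB2-2* than *DREB2A* i3 had, namely c38050_g1_i1, *DREB1B*, the CBF-like c49245_g1_i1 (0.745) and *CBF17* (c35060_g1_i1, 0.583). The 3 *DREB1F* transcripts (−0.25 to 0.14), *DREB1-1* (c60571_g1_i1, −0.06) and *DREB1-2* (c60571_g1_i2, −0.02) lay far below. Differences between these correlations were not tested.

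Transcripts named DREB1 or CBF, the cold branch, formed a mixed group beside the DREB2 members. Of 9 such transcripts from 8 unigenes, 4 were called higher at 6 h (44.4%, beside 12.6% of all transcripts) and 4 at 12 h (44.4%, beside 10.2%), and 0 were called lower (beside 9.21% and 11.2%), with a median change of −0.19 at 6 h and 0.92 at 12 h. The DREB2 medians were 1.81 at 6 h and 0.79 at 12 h, and those of all transcripts −0.00 and −0.04. The DREB2 members ran from 0.52 to 3.89 at 6 h and from −0.04 to 1.87 at 12 h, so each median lies between unlike members. Between durations 1 of the 9 was called higher at 12 h (beside 1.29% of all transcripts) and 0 lower (beside 3.62%). The 9 had a median of 0.82. The DREB2 members had a median of −1.21 and ran from −2.02 to −0.19. Both groups rest on names of best hits, and a difference between the branches was not tested. *DREB1B* rose at both durations, by 2.26 (SE 0.31, adjusted p 0.000135) and then 1.44 (adjusted p 0.00440). Its levels were 0 to 1.46 FPKM in controls, 3.92 to 8.43 at 6 h and 0.69 to 7.56 at 12 h, and it was lower at 12 h than at 6 h at 5 of 6 stages without passing (−0.82, adjusted p 0.200). A CBF-like transcript (c49245_g1_i1), at 0 to 0.09 FPKM in controls, rose by 1.70 at 6 h (adjusted p 0.000285) and by 2.0 at 12 h (adjusted p 8.01e-05), and was lower at 12 h than at 6 h at 2 of 6 stages. The 3 *DREB1F* transcripts, *DREB1-1* and *DREB1-2* were not called at 6 h.

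Among DREB factors outside the DREB1 and DREB2 lists, 3 of 4 transcripts from 2 unigenes rose at 6 h (beside 12.6% of all transcripts) and 3 at 12 h (beside 10.2%), and these were isoforms of 1 unigene, *TINY*. Between durations limma called 0 of the 4, beside 1.29% of all transcripts called higher and 3.62% lower. Of the 4, 2 had an unadjusted p under 0.05, as did 1982 of all 13342 transcripts. *TINY* (c62469_g1_i3), a DREB factor studied in Arabidopsis, rose at both durations, by 1.24 (SE 0.17, adjusted p 0.000138) and 1.66 (adjusted p 1.15e-05). *DREB3* (c62112_g1_i1) had changes of −0.38 and 0.10 that did not pass (adjusted p 0.256 and 0.822). The regulators known to act on the DREB2A protein or gene in Arabidopsis, such as the DRIP ubiquitin ligases, gave 7 transcripts in the assembly and 0 in the expression table.

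Most transcripts named for known targets of the dehydration-responsive element were higher at both durations. Of 10 transcripts of dehydration and cold targets from 6 unigenes, 8 rose at 6 h (80%, beside 12.6% of all transcripts) and 8 at 12 h (80%, beside 10.2%), with medians of 2.96 and 3.19. These 8 came from 5 unigenes. Between durations limma called 0, beside 1.29% of all transcripts called higher and 3.62% lower. Of the list, 1 had an unadjusted p under 0.05, as did 1982 of all 13342 transcripts. A dehydrin (c38136_g1_i1), a protein of cells that lose water, ran from 21.97 to 90.9 FPKM in controls, from 244.7 to 651 at 6 h and from 264 to 858 at 12 h, a rise of 3.14 (SE 0.25, adjusted p 1.15e-06) and 3.62 (SE 0.25, adjusted p 4.56e-07). *LEA14* (c52045_g1_i1), named for a desiccation-related protein, rose by 3.48 at 6 h and 3.61 at 12 h (SE 0.36, adjusted p 1.16e-05 and 9.85e-06). *ERD7* (c66527_g1_i1), an early-responsive to dehydration transcript, rose by 2.94 and 3.19 (SE 0.22, adjusted p 4.91e-07 and 3.87e-07). *DREB2-2* was lower at 12 h than at 6 h at 6 stages, and for *ERD7* and *LEA14* the differences between durations were 0.26 and 0.13 (adjusted p 0.655 and 0.916). The 2 named dehydrins had differences of 0.49 (c38136_g1_i1, adjusted p 0.417, lower at 1 of 6 stages) and 0.71 (c56112_g1_i1, adjusted p 0.227, lower at 0 of 6 stages). Other transcripts of the list went the other way. *ERD3* (c72699_g3_i3), called higher at both durations, had −0.50 (adjusted p 0.359). Dehydrin-like protein 2a, called at neither, had −0.25 (c67015_g1_i2, adjusted p 0.645) and −0.26 (c67015_g1_i3, adjusted p 0.643).

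Transcripts named for heat stress factors and heat shock proteins, among which are factors that act upstream of DREB2A in Arabidopsis and genes downstream of it, had calls in both directions. Of 18 from 12 unigenes, 3 rose and 2 fell at 6 h (16.7% and 11.1%, beside 12.6% and 9.21% of all transcripts), and 2 rose and 4 fell at 12 h (11.1% and 22.2%, beside 10.2% and 11.2%). Apart from the falls at 12 h, which came from 3 unigenes, these shares were near those of all transcripts. The medians were −0.55 and −0.76. *HSFA6B* (c63500_g2_i1), a heat stress transcription factor, rose by 1.13 at 6 h (SE 0.16, adjusted p 0.000132), was at −0.05 at 12 h (adjusted p 0.899) and fell by 1.17 on the log2 scale between durations (adjusted p 0.000402), lower at 6 of 6 stages. Its levels were 0.08 to 1.32 FPKM in controls, 1.40 to 2.32 at 6 h and 0.10 to 0.90 at 12 h. *HSFA1e* (c66810_g1_i9), a heat stress factor of the class that acts upstream of DREB2A in Arabidopsis, rose by 1.31 and 1.23 (SE 0.17, adjusted p 0.000103 and 0.000184). *HSP70B* (c63723_g1_i7), a chaperone, rose by 1.21 at 6 h (adjusted p 0.00150) and had 0.52 at 12 h (adjusted p 0.132). A heat shock factor (c67789_g1_i2) was called higher at 12 h only, by 1.67 (adjusted p 0.00234). Heat shock factor 7 (c67249_g3_i2) was lower at both, with −1.0 and −0.88 (adjusted p 0.00146 and 0.00386). So was *HSFA7A* (c67111_g3_i3), with −1.43 and −1.50 (adjusted p 0.0493 and 0.0402). The other falls at 12 h were isoforms of a class I small heat shock protein. They had −1.28 (c71547_g1_i3, adjusted p 0.0192) and −1.02 (c71547_g1_i1, adjusted p 0.0283). Of 4 galactinol synthases, which make the precursor of raffinose sugars, 0 were called at 6 h (beside 12.6% higher and 9.21% lower of all transcripts). An unadjusted p under 0.05 was found at 6 h for 1 of the 4 and for 4147 of all 13342 transcripts. At 12 h 2 rose (beside 10.2% of all transcripts), c37981_g1_i1 by 1.91 (SE 0.47, adjusted p 0.00923) and c105721_g1_i1 by 1.56 (SE 0.38, adjusted p 0.00894). Galactinol synthase 6 (c23369_g2_i1) had −0.76 and −0.84 at 6 h and 12 h (adjusted p 0.145 and 0.105). It was called lower for cold in early stages (−1.63, adjusted p 0.00278, beside 7.44% of all transcripts). The transcript c60926_g1_i1 had 0.22 and −0.14 (adjusted p 0.643 and 0.807).

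**Figure D4:**
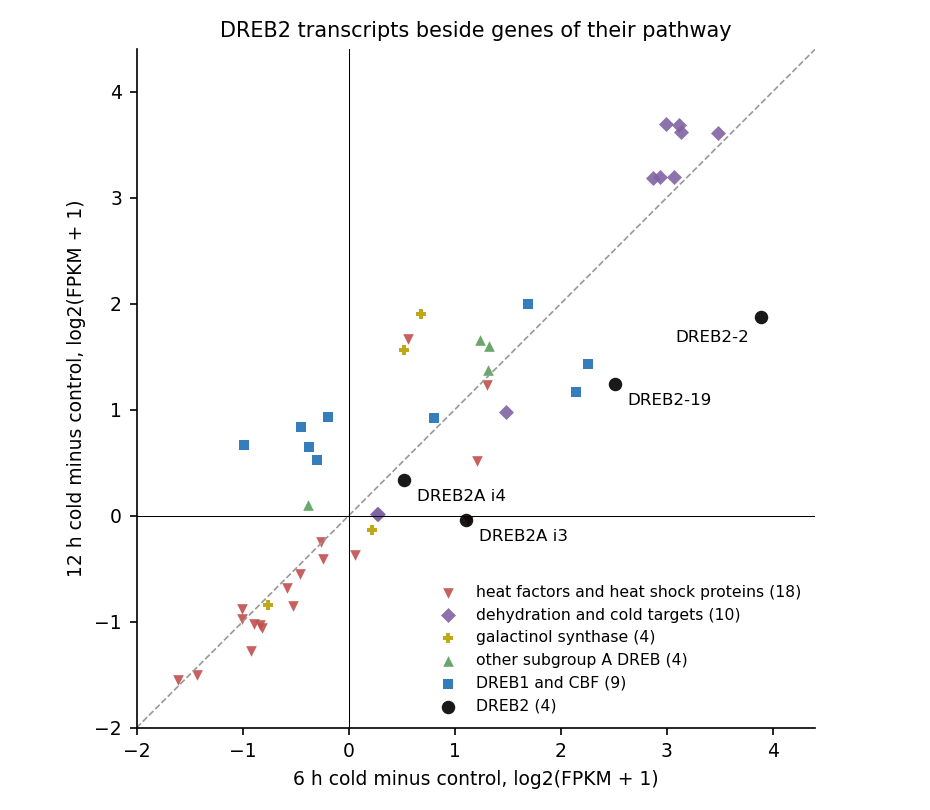
Change at 12 h (y axis) against change at 6 h (x axis), both against the same controls and in log2(FPKM + 1), 1 point for each of the 4 DREB2 transcripts and of the pathway lists. The dashed line marks equal change. *DREB2-2* (3.89 and 1.87) and *DREB2-19* (2.52 and 1.24) lie below it, and most dehydration and cold targets lie above it.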

How the data were processed

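RNA was sequenced from whole siliques, and each of the 18 samples was placed by its labelled stage and duration of cold. The deposited expression values are FPKM that the authors scaled by TMM, after filtering with the NGS QC Toolkit, Trinity assembly, Bowtie2 mapping and RSEM estimation, kept for 13342 transcripts called in their edgeR step. Their versions are not stated in the sources used here. The annotation table deposited by the authors (FastAnnotator) gave lengths, bit scores and other fields, and best hits gave the names. The hit length was read as residues, since 3 times its value did not exceed the transcript for 100% of transcripts with one.

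Values were taken to log2(FPKM + 1) with no filter on low values. Duration was tested over the 18 libraries in limma 3.58.1 (R 4.3.3), blocked by stage. A second model nested duration in phase, and late and early stages were compared on 6 stage means. Stage as the pairing comes from the labels. P-values were adjusted by Benjamini-Hochberg over 13342 transcripts, with calls under 0.05. The test was also run on simulated data with known changes, whose outcome is not reported here and is not used as support. For late against early stages that simulation held no variation between stages of a phase beyond that between libraries. Read depth per library was not used, so no counting interval is given. Alternatives were a pseudocount of 0.1, a mean of at least 1 FPKM, median ratio scaling, isoforms with expression values summed per unigene, no stage block, read class (taken from the study's account of filtering) as a term, single stages or the 5 DAP 6 h library left out, and control or cold libraries alone for stages.

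All members were described. Of each pathway list up to 4 transcripts with the smallest p at 6 h or 12 h, 1 per unigene, could be named, as could the 5 most like transcripts with a name and a mean of at least 1 FPKM. Some further list members are named where they were called, went the other way or were not called, and others are not named. Members and lists were chosen with earlier results of these data known. Pathway lists came from words in the best hit. Counts and exact tests used scipy 1.17.1, numpy 2.4.6 and pandas 2.3.3, and plots matplotlib 3.10.9, in Python 3.11.15.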

Additional observations from a re-analysis of the deposited data

How the results depend on the processing

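The 6 h rises of *DREB2-2* and *DREB2-19* passed under all 13 alternatives, with changes of 3.8 to 4.81 and 2.42 to 4.61, and no named result changed sign past the threshold. With read class as a term, members called higher went from 2 to 1 at 12 h and from 2 to 1 for cold in early stages, and members called lower at 12 h than at 6 h went from 2 to 0. Of the 5 transcripts most like each member, 3, 3 and 0 were kept for *DREB2-2*, *DREB2-19* and *DREB2A* i3 once the stage mean was removed. Without the stage block, *DREB2-2* kept its calls (6 h 3.89, SE 0.36, adjusted p 4.72e-07), and *DREB2A* i3 at 6 h did not (1.11, SE 0.40, adjusted p 0.0884). Leaving out single stages or the 5 DAP 6 h library gave 0.79 to 1.32 for i3 at 6 h.

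Counts over all transcripts moved more. Higher and lower calls were 1684 and 1229 at 6 h, 1367 and 1489 at 12 h, 172 and 483 between durations, 1416 and 992 for early cold, 1027 and 740 for late cold, and 458 and 37 for late against early stages. Without the stage block they were 1033 and 455, 805 and 512, 43 and 169, 920 and 364, and 669 and 331 for the 5 cold comparisons in that order. With read class they were 806 and 417 at 12 h, 48 and 159 between durations and 531 and 188 for early cold. With isoforms summed, 9446 unigenes were tested in place of 13342 transcripts, so these counts have a smaller base and are not directly comparable. Of them 902 were higher at 12 h, 91 higher and 306 lower between durations, 919 and 662 higher for early and late cold, and 250 higher and 16 lower in late stages. Leaving out 1 stage took the counts as low as 782 lower at 6 h, 60 higher and 262 lower between durations, 821 and 334 for early cold, and 576 and 391 for late cold. Late against early stages gave 0 calls without 5, 10, 25 or 30 DAP or the 5 DAP 6 h library and with cold libraries alone, 94 lower without 15 DAP, 1446 higher and 340 lower without 20 DAP, 262 higher under median ratio scaling, 59 lower with a pseudocount of 0.1 and 80 lower in controls alone. The read counts behind low values were not used, which limits *DREB2-19* in controls most, and 1 library per stage and duration leaves single-stage values with no replicate check.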
